A study of Mus musculus with 2 samples.

Results

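Cthrc1, Fetub, Stk32a, Gal and Fkbp11 were 5 genes of the 28380 counted in single cells of mouse long bone. They were chosen by their counts of unique molecular identifiers (UMIs, 1 per captured RNA molecule), which had been higher in stromal cells of a Dach1OE library than in those of a Control library. Every Dach1OE over Control value below therefore describes the contrast that chose these genes and carries no test. All 5 symbols were found in both tables.

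Both libraries came from femur and tibia of C57BL/6 mice at postnatal day 30, freed of muscle and epiphysis and depleted of blood-lineage cells. The Control genotype is given as Dach1OE +/f, the transgene without Cre, and the Dach1OE genotype as Apj CreERT2 - Dach1OE +/f, in which tamoxifen turns on Dach1 in cells that express Aplnr (also called Apj), a gene of capillary endothelium. Both groups were given tamoxifen, per the methods within the first days after birth, and an R26-mT/mG reporter was part of the breeding. Each library pooled a pair of mice, male and female per the labels, so there was 1 library per group and no replicate. The driver acts in endothelial cells (ECs), whereas the 5 genes are described here mainly in bone cells.

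The genes have little in common by function. Cthrc1 encodes collagen triple helix repeat containing 1, a glycoprotein that osteoblasts and activated fibroblasts secrete and that binds Wnt proteins and their Frizzled and Ror2 receptors on the planar cell polarity branch of Wnt signalling. Gal encodes the precursor of galanin, a neuropeptide that acts through G protein-coupled receptors. Fetub encodes fetuin-B, a plasma protein of the cystatin superfamily made mainly by liver, which keeps the egg coat penetrable by inhibiting the protease ovastacin. Fkbp11 encodes a peptidyl-prolyl isomerase of the endoplasmic reticulum (ER) that is abundant in secretory cells. Stk32a encodes a serine/threonine kinase about which little is known. Osteoblasts, the cells that lay down bone, secrete type I collagen and osteocalcin (Bglap) and so depend on a large ER.

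On GRCm38 (GENCODE vM21), Cthrc1 (ENSMUSG00000054196.7) lay on the plus strand at chr15:39076932-39087121 and Fkbp11 (ENSMUSG00000003355.7) on the minus strand at chr15:98724366-98728198. Fetub (ENSMUSG00000022871.13) lay on the plus strand at chr16:22918334-22939778 and Gal (ENSMUSG00000024907.7) on the minus strand at chr19:3409915-3414544. All 4, like Stk32a, are protein coding, and none overlaps another annotated gene on either strand.

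The sequences next to the starts are shown for the 3 members whose promoter windows were at hand in RefSeq (GRCm38.p6), since the members were grouped for a shared direction and these are the bases upstream of them. Each is printed 5′ to 3′ on the gene's own strand. It ends at the last base outside the annotated gene, and capitals mark matches on either strand to the RUNX core TGTGGT, the ATF and CREB core TGACG, the core promoter box TATAAA or the homeodomain core TAATTA. The windows are chr19:3414545-3414794 (minus strand) for Gal, chr15:98728199-98728448 (minus strand) for Fkbp11 and chr16:22918132-22918333 (plus strand) for Fetub.
Gal: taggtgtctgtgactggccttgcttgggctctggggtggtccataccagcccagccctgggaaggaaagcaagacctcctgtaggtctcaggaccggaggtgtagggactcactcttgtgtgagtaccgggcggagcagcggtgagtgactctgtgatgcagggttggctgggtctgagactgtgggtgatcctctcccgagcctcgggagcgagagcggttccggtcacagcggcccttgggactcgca
Fkbp11: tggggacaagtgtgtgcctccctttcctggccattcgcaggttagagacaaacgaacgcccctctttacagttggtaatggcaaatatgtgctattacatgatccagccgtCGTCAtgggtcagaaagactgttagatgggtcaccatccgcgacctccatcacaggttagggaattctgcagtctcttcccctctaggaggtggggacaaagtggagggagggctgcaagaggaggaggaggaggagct
Fetub: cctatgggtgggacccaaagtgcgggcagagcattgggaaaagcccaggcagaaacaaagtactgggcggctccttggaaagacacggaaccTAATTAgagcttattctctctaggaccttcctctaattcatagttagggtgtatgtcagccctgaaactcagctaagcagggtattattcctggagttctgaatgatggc

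In the 250 bases before the RefSeq start, Fkbp11 had TGACG 139 bases upstream, and Fetub had TAATTA 158 and TATAAA 31 bases upstream, the latter inside the gene as GENCODE draws it. Gal had none of the 4 motifs. RefSeq gives Fetub and Fkbp11 a further start each, inside the gene. The window before that of Fetub held TGTGGT at 195 and TGACG at 106 bases upstream and neither of the other motifs, and that of Fkbp11 held none of the 4. Over 32851 such windows of mouse genes, TGACG was found in 17.8%, TGTGGT in 14.0%, TATAAA in 12.4% and TAATTA in 4.84%. No motif of the 4 was common to all 3 genes in any of these windows.

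The filters kept 26466 of 28720 Control cells and 29317 of 32028 Dach1OE cells, with a median of 3793.5 and 4055 UMIs. The tables held 143986818 and 166999989 UMIs in all, from 1.51 and 1.45 reads per UMI, and 1049 cell labels occurred in both libraries (879 among kept cells). Cells were sorted into classes by marker genes that include none of the 5, and a class name means cells like that type. The osteoblast-like cells, which score on Bglap, Bglap2, Ibsp, Ifitm5, Smpd3, Sp7, Alpl and Dlx3, numbered 1962 in Control and 2669 in Dach1OE, with a median of 6966 and 7341 UMIs and 7.95% and 7.84% mitochondrial UMIs, and 5.81% and 4.46% of them lay near the limits of the gate. Of stromal UMIs, osteoblast-like cells held 47.9% in Control and 67.4% in Dach1OE, whereas diaphyseal (Adipoq and Lepr) stromal cells held 29.5% and 11.9%. Leukocyte-, erythroid- and megakaryocyte-like cells remained after the depletion, 3422 in Control and 3912 in Dach1OE, and serve below as a background level. Single erythroid-like cells held up to 9 Cthrc1 UMIs in Control and 21 in Dach1OE, and the source of such UMIs was not tested. Dach1 itself was at 5.28 CPM (UMIs of a gene per 1000000 UMIs of the class) in Control and 197.9 in Dach1OE ECs, as the labels say. In osteoblast-like cells it was at 3.84 and 6.38, a log2 ratio of 0.73 (0.26 to 1.22). The Dach1 ratio was also above 0 in diaphyseal stromal (1.50, 0.90 to 2.10), mural-like (1.54, 0.74 to 2.44) and chondrocyte-like cells (1.20, 0.90 to 1.51). In haematopoietic cells it was 0.21 (0.02 to 0.41). The source of the Dach1 UMIs outside ECs was not tested. Intervals are 95% and cover counting error only, so they do not include the spread between mice.

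All 5 genes were higher in the Dach1OE stromal cells taken as a whole (6240 Control and 5117 Dach1OE cells, every stromal subtype together). Cthrc1 went from 253 to 556 CPM (log2 ratio 1.14, interval 1.10 to 1.18). Stk32a went from 3.26 to 8.29 CPM (1.34, 0.99 to 1.70) and Fetub from 3.33 to 7.25 (1.12, 0.77 to 1.49). The differences of the remaining pair were smaller. Gal went from 10.9 to 18.1 CPM (0.73, 0.52 to 0.93) and Fkbp11 from 86.9 to 115 (0.41, 0.33 to 0.48). Split by sex, which stands for 1 mouse per library, Gal was at 11.6 and 12.2 CPM in stromal cells with Xist (female), a ratio of 0.08 (-0.29 to 0.45), and at 9.55 and 25.2 in those with Y-linked UMIs (male), a ratio of 1.40 (0.97 to 1.86). Cells with neither mark are in the total alone. For the other genes the ratios in Xist and Y-linked cells were 1.07 and 1.12 for Cthrc1, 0.96 and 0.71 (-0.02 to 1.47) for Fetub, 1.49 and 1.23 for Stk32a, and 0.28 and 0.36 for Fkbp11. A log2 ratio of 1 or more was passed by Cthrc1, Fetub and Stk32a, 3 of the 5, and by 0.67% of the 16428 genes with at least 20 UMIs in these cells. At the other end, 4.79% were at -1 or below. Since the choice rests on this contrast, nothing is read from these shares. With equal weights of the subtypes none of the 3 passed it (0.86 for Cthrc1, 0.19 for Fetub and 0.76 for Stk32a), and with at least 4000 UMIs per cell Cthrc1, at 0.92, and Fetub, at 0.85, did not. Equal weights count osteocyte-like cells as much as osteoblast-like cells. In osteocyte-like cells Fetub was at 8.51 and 3.52 CPM on only 2 and 1 UMIs, and Stk32a had 2 and 3 UMIs. By size of the ratio Stk32a stood at place 32, Cthrc1 at 73, Fetub at 79, Gal at 274 and Fkbp11 at 812 of the 16428. The median over those genes was -0.21, and relative to it the log2 ratios were 1.55 for Stk32a, 1.35 for Cthrc1, 1.33 for Fetub, 0.94 for Gal and 0.62 for Fkbp11.

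The stromal total mixes 2 quantities, how many cells of each subtype were captured and how much of the gene each subtype held, and the 5 genes differed in how their change divided between them. When the Control levels of each subtype were kept and the shares of UMIs set to those of Dach1OE, the log2 ratio was 0.42 for Cthrc1, 0.43 for Fetub, 0.35 for Stk32a, 0.45 for Gal and 0.38 for Fkbp11. The shift in shares alone thus gave all 5 a ratio above 0 of much the same size. When instead the shares were kept at those of Control and the levels set to those of Dach1OE, the ratio was 0.71 for Cthrc1, 0.69 for Fetub, 0.96 for Stk32a, 0.30 for Gal and 0.04 for Fkbp11. For Fkbp11 nearly the whole difference in the stromal total lay in the shares.

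**Figure D1:**
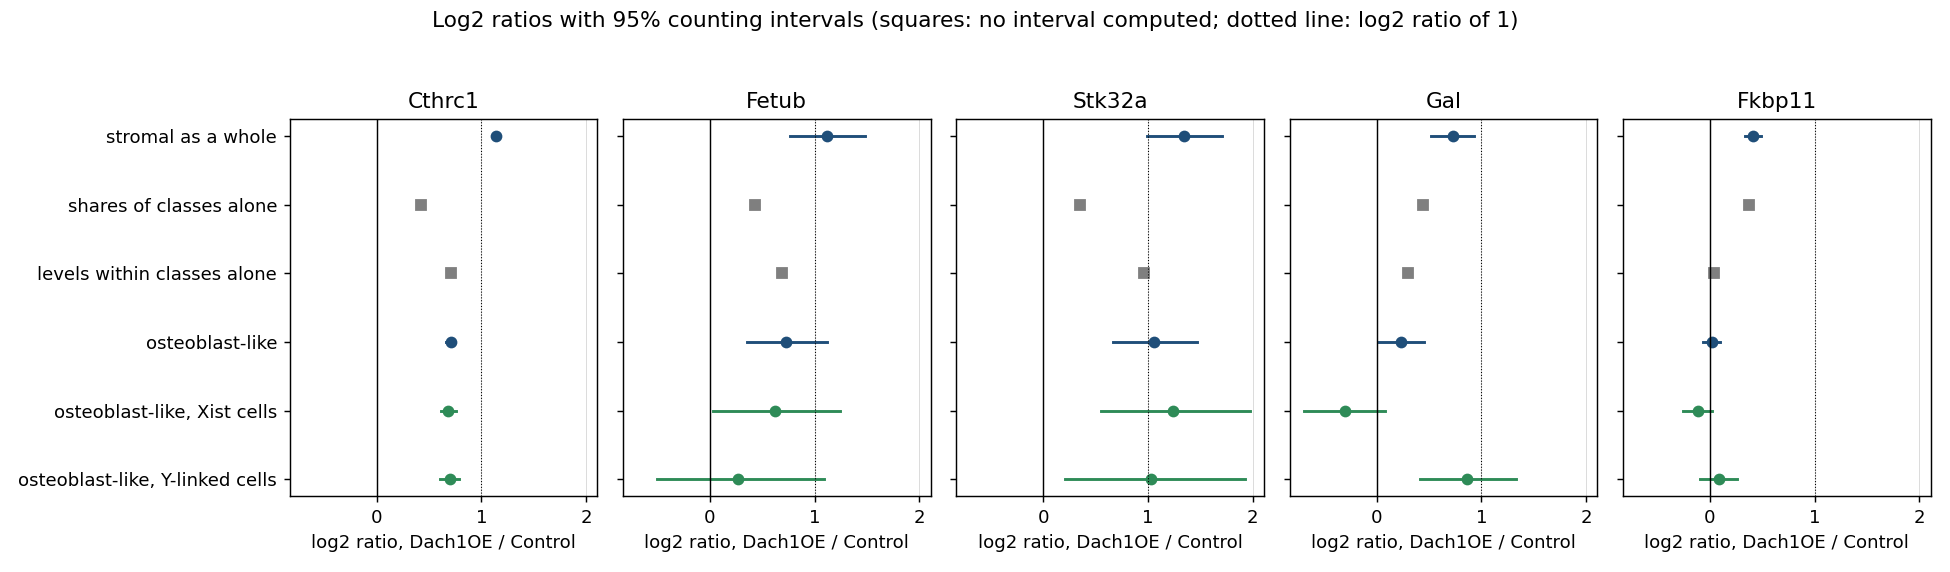
Log2 ratios of CPM, Dach1OE over Control (x axis), for the 5 genes in stromal cells as a whole, with only shares or only levels exchanged (squares, no interval computed), in osteoblast-like cells, and in osteoblast-like cells with Xist or with Y-linked UMIs. Bars are 95% counting intervals: Cthrc1 sits near 0.7 in every osteoblast-like row, Fkbp11 near 0, and the Gal values of the 2 sexes lie on either side of 0.

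Within osteoblast-like cells the 5 genes fell into a set that differed and a set that hardly did. Cthrc1 gave 6507 UMIs in Control and 15079 in Dach1OE, which is 472 CPM (460.5 to 483) against 769.7 (757 to 782), a log2 ratio of 0.71 (0.66 to 0.75). Stk32a gave 72 and 213 UMIs, 5.22 CPM (4.09 to 6.58) against 10.9 (9.46 to 12.4), a ratio of 1.06 (0.67 to 1.46). Fetub gave 84 and 198 UMIs, 6.09 CPM (4.86 to 7.54) against 10.1 (8.75 to 11.6), a ratio of 0.73 (0.36 to 1.12). The Control and Dach1OE intervals of these 3 do not overlap. The share of all genes for which this holds is not given here, so nothing is read from it. Gal gave 288 and 482 UMIs, 20.9 CPM (18.5 to 23.4) against 24.6 (22.5 to 26.9), a ratio of 0.24 (0.02 to 0.45), and its 2 intervals overlap. Fkbp11 gave 2115 and 3039 UMIs, 153 CPM against 155, a ratio of 0.02 (-0.06 to 0.10). For Fkbp11 the counting interval reaches no further than 0.10 on the log2 scale. In these cells 1 of the 5, Stk32a, passed a log2 ratio of 1, against 1.04% of 14467 genes (2.41% were at -1 or below). Fkbp11 was thus higher in the stromal total while its level in osteoblast-like cells differed little.

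The difference in Cthrc1 ran through the whole range of osteoblast-like cells. In Control 28.2% of them had no Cthrc1 UMI, and in Dach1OE 14.3%. Cells with 10 or more UMIs made up 7.24% in Control and 19.8% in Dach1OE, and the median cell held 2 UMIs in Control and 5 in Dach1OE. A Cthrc1 UMI was found in 71.8% (exact binomial interval 69.8 to 73.8) of Control and 85.7% (84.3 to 87.0) of Dach1OE cells. Thinned to 1000 UMIs per cell, which left out 1 Control and 2 Dach1OE cells, the shares were 30.6% (28.6 to 32.7) and 45.5% (43.6 to 47.4). In haematopoietic cells, which should lack the gene, the share was 1.64% in Control and 2.51% in Dach1OE at a median of 4963.5 and 4999 UMIs. Fkbp11 showed no such shift: 46.3% of Control and 43.8% of Dach1OE osteoblast-like cells had none, and 3.41% and 3.03% had 5 to 9.

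**Figure D2:**
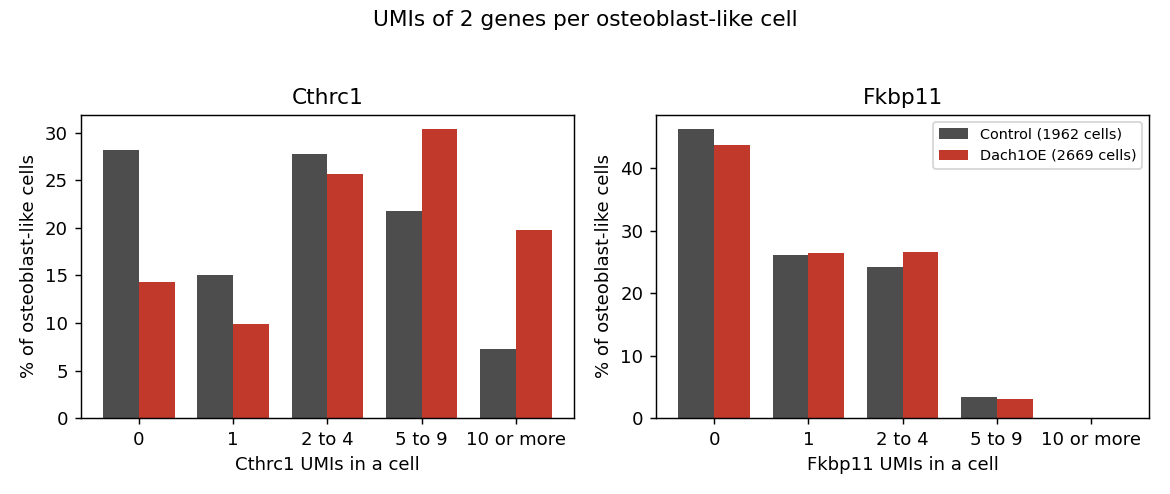
Percentage of osteoblast-like cells (y axis, from 0) that held 0, 1, 2 to 4, 5 to 9, or 10 or more UMIs of Cthrc1 (left) or Fkbp11 (right), for 1962 Control and 2669 Dach1OE cells. For Cthrc1 the Dach1OE bars are lower up to 4 UMIs and higher from 5 on, and for Fkbp11 the bars of the libraries nearly match.

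Gal, Fetub and Stk32a were sparse. A Gal UMI was found in 10.6% of Control and 12.1% of Dach1OE osteoblast-like cells, a Fetub UMI in 3.92% and 6.71%, and a Stk32a UMI in 3.67% and 7.19%. No cell held more than 6 UMIs of Gal, 4 of Fetub or 3 of Stk32a. Thinned to 1000 UMIs per cell, Gal was left in 2.09% (1.50 to 2.83) of the Control and 1.39% (0.98 to 1.91) of the Dach1OE cells, an order opposite to that of its CPM, and the intervals overlap. No order is read from it.

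Stk32a (ENSMUSG00000039954.9) lies on the plus strand at chr18:43207583-43318682, a span of 111100 bases against 3833 for Fkbp11, and intronic reads were counted. Its UMIs rested on 1.01 reads each in both libraries, against 1.51 and 1.44 for Cthrc1, 1.50 and 1.42 for Fkbp11, 1.39 and 1.38 for Gal, and 1.35 and 1.34 for Fetub. Nearly every Stk32a UMI was thus seen in a single read. With raw UMIs in place of the error-corrected ones the osteoblast-like ratio was 1.07.

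Taking each pool as 1 female and 1 male, cells could be given to a mouse where they held UMIs of Xist or of the Y-linked Ddx3y, Eif2s3y, Kdm5d and Uty, and the rest were left out. In osteoblast-like cells with Xist (799 Control and 810 Dach1OE cells) Cthrc1 was at 471 and 757 CPM, a ratio of 0.68 (0.62 to 0.75), and in cells with Y-linked UMIs (358 and 633 cells) at 492 and 797 CPM, a ratio of 0.70 (0.61 to 0.79). In this split both Dach1OE values of Cthrc1 were above both Control values. The split reuses the counts that chose the genes, so it is a description and not a replication. Stk32a showed the same order, with 4.39 and 5.64 CPM in the Control mice and 10.4 and 11.5 in the Dach1OE mice. For Fetub the Control mice were at 6.84 and 7.40 CPM and the Dach1OE mice at 10.5 and 8.92, with a ratio of 0.62 (0.03 to 1.24) in Xist cells and 0.27 (-0.51 to 1.09) in the others. Gal did not keep its order. It was at 21.4 CPM in Control and 17.3 in Dach1OE cells with Xist, a ratio of -0.31 (-0.70 to 0.08), but at 19.0 and 34.5 CPM in cells with Y-linked UMIs, a ratio of 0.86 (0.41 to 1.33). For Fkbp11 the ratios were -0.12 (-0.26 to 0.02) and 0.08 (-0.09 to 0.26). In each of these comparisons 1 mouse is set against 1 mouse, and sex and mouse cannot be told apart.

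Osteoblast-like cells were divided into quartiles by their Bglap level, as a measure of how much osteocalcin message they carried, and the 5 genes took different courses along it. From the lowest to the highest quartile Cthrc1 went from 596 to 396 CPM in Control and from 934 to 714 in Dach1OE. Gal went from 38.3 to 14.4 CPM in Control and from 45.1 to 14.6 in Dach1OE, and Fkbp11 from 237 to 111 and from 217 to 119. These 3 were thus highest where Bglap was low. Fetub ran the other way, from 4.36 to 9.58 CPM in Control and from 6.27 to 17.2 in Dach1OE. Its value was highest in the top quartile of both libraries. In Control the intervals of the lowest (2.38 to 7.31) and highest quartile (6.90 to 12.9) overlap, so no course is read there. In Dach1OE they do not overlap (4.10 to 9.19 and 13.7 to 21.4). Stk32a showed no course beyond its intervals, with 4.04, 5.08, 5.82 and 5.70 CPM in Control and 9.89, 10.7, 12.9 and 9.76 in Dach1OE.

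The ratio of Dach1OE over Control was above 0 in all 4 quartiles for Cthrc1, at 0.65 (0.57 to 0.73), 0.63 (0.54 to 0.72), 0.68 (0.59 to 0.76) and 0.85 (0.77 to 0.94) from low to high Bglap. It lay above 0 in all 4 for Stk32a too, at 1.29, 1.07, 1.15 and 0.78, with no interval that reached 0. For Fetub the interval stayed above 0 in the upper pair of quartiles, at 0.96 (0.11 to 1.87) and 0.84 (0.29 to 1.42). For Gal it did so only in the second, at 0.47 (0.02 to 0.94), and the values in the upper pair were 0.01 and 0.03. The quartiles of Control and Dach1OE were cut at common levels and held 519 and 639, 398 and 759, 472 and 686, and 573 and 585 cells from low to high. In osteoblast-like cells with a UMI of Notum, a secreted Wnt inhibitor, Cthrc1 was at 609 CPM against 445 without it in Control and at 956 against 733 in Dach1OE. Gal was at 29.4 against 19.2 and at 35.4 against 22.5, and Fkbp11 at 196 against 145 and at 188 against 149. Fetub and Stk32a were not higher in cells with Notum. Cells with Notum were deeper (median 7822 against 6784 UMIs in Control, 7907 against 7240.5 in Dach1OE). They also held less Bglap, 9493 against 15918.5 CPM in Control and 8920 against 14043 in Dach1OE. The part of depth and Bglap level in these differences was not tested.

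**Figure D3:**
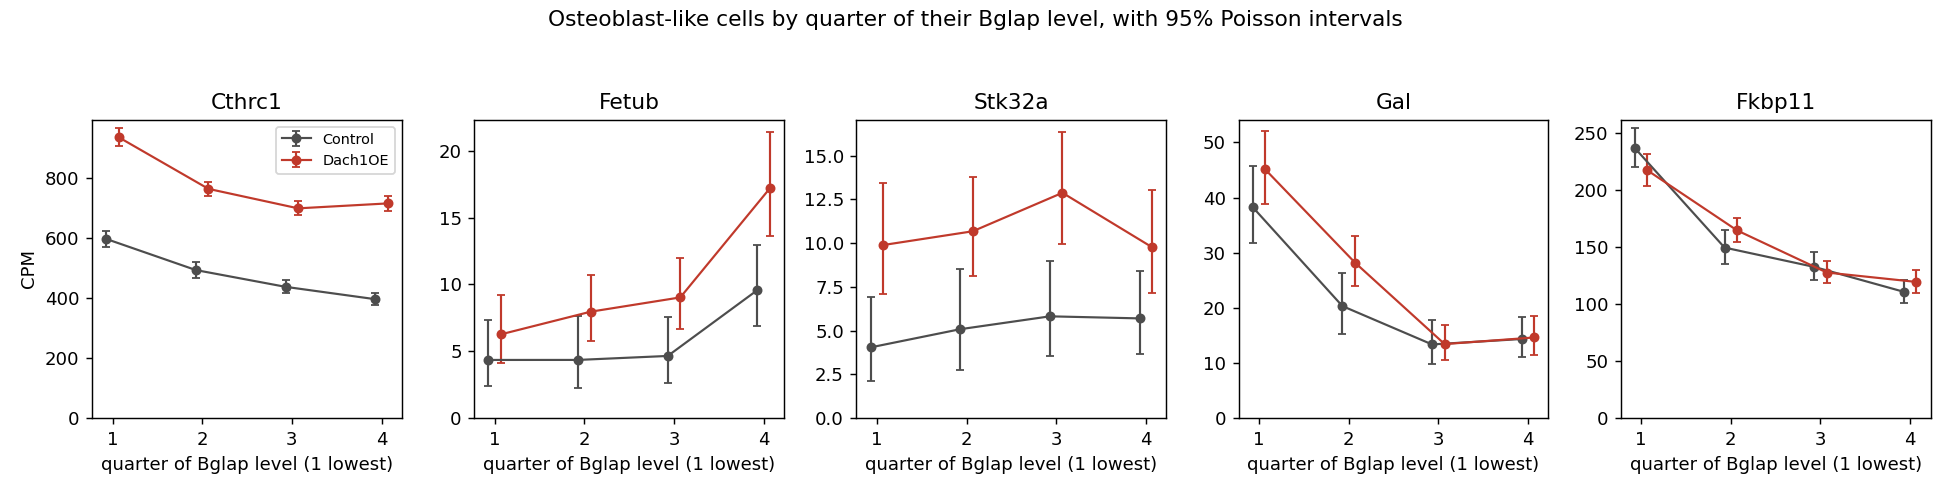
CPM of each gene (y axis, from 0, own scale per panel) in osteoblast-like cells by quartile of Bglap level (x axis, 1 lowest), for Control and Dach1OE, with 95% Poisson intervals. Cthrc1, Gal and Fkbp11 are highest in the lowest quartile and Fetub in the highest, while the Dach1OE points of Cthrc1 and Stk32a lie above those of Control in all 4.

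Across the classes of bone cells Cthrc1 was highest in osteoblast-like cells in both libraries. In Control it was next at 143 CPM (124 to 164) in cycling stromal cells, 142 (126 to 160) in fibroblast- or tendon-like cells and 124 in metaphyseal stromal cells, which do not differ beyond their intervals. It was at 106 CPM in stromal cells between subtypes, 58.5 in chondrocyte-like cells, 34.0 in osteocyte-like cells, 18.5 in septoclast-like cells, 12.6 in ECs, 9.53 in diaphyseal stromal cells, 7.62 in mural-like cells and 3.89 in haematopoietic cells. From chondrocyte-like down to mural-like cells each interval overlaps the next, so the order of neighbours there is not read. The osteocyte- and septoclast-like values rest on 8 and 14 UMIs. In Dach1OE the order was similar, with 383 CPM (350 to 418) in cycling stromal cells now above 245 (219 to 273) in fibroblast- or tendon-like cells and 131 in metaphyseal stromal cells. Osteoblast-like cells held 57.7% of the Cthrc1 UMIs in Control and 62.7% in Dach1OE, and chondrocyte-like cells 23.5% and 20.5%.

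**Figure D4:**
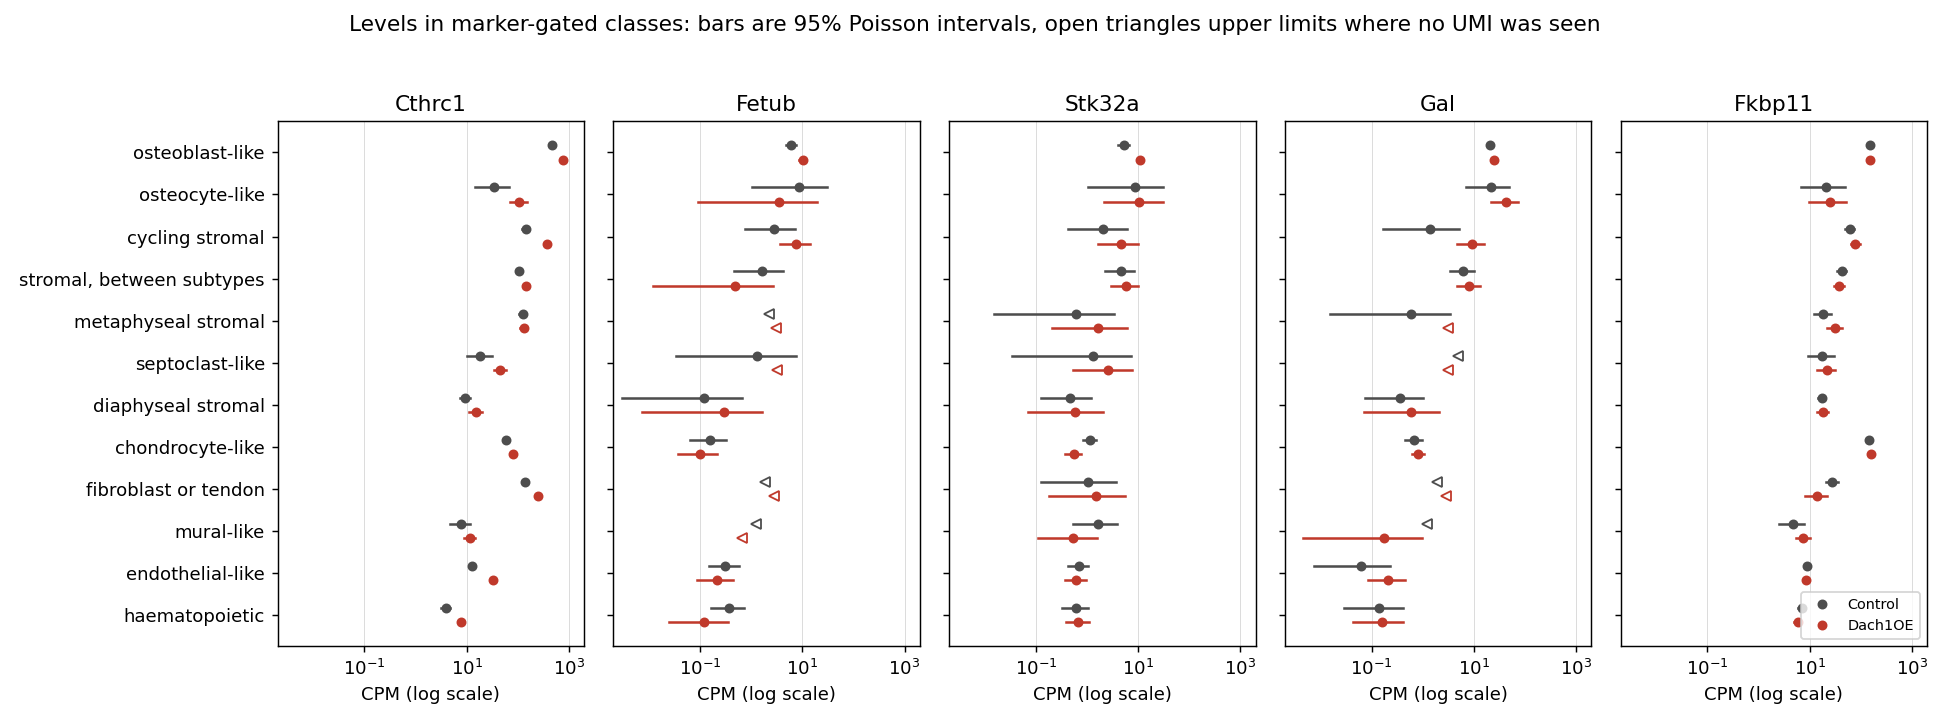
CPM of each gene (x axis, log scale) in 12 marker-gated classes (rows) of Control and Dach1OE, with 95% Poisson intervals, and open triangles at the upper limit where no UMI was seen. Gal, Fetub and Stk32a have their highest points in osteoblast- or osteocyte-like cells, Cthrc1 is spread over most skeletal classes, and Fkbp11 is as high in chondrocyte-like as in osteoblast-like cells.

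The higher Cthrc1 in Dach1OE was not limited to osteoblast-like cells. The ratio was 1.42 (1.19 to 1.66) in cycling stromal cells, 0.79 (0.55 to 1.02) in fibroblast- or tendon-like cells, 0.48 (0.24 to 0.73) in stromal cells between subtypes and 0.65 (0.12 to 1.17) in diaphyseal stromal cells, where only 81 and 52 UMIs were seen. Cycling stromal cells were set apart by proliferation genes whatever their subtype. Their mix of subtypes can differ between the libraries, and its part in the ratio was not tested. In the fibroblast- or tendon-like cells the share with a Cthrc1 UMI had the opposite order to the CPM, 31.0% in Control and 24.5% in Dach1OE, and single cells held up to 20 and 27 UMIs. No order is read for this class. The ratio was 0.08 (-0.23 to 0.39) in metaphyseal stromal cells, at 124 and 131 CPM. Chondrocyte-like cells went from 58.5 to 81.9 CPM, a ratio of 0.49 (0.42 to 0.55). Split by their leading marker, the ratio in them was 0.32 (0.23 to 0.40) where Ucma led, 0.62 (0.46 to 0.78) where Ihh led and 0.93 (0.66 to 1.19) where Col10a1, the collagen of hypertrophic cartilage, led. By mouse it was 0.20 (0.10 to 0.30) in chondrocyte-like cells with Xist and 0.85 (0.72 to 0.97) in those with Y-linked UMIs. Haematopoietic cells had 84 Cthrc1 UMIs in Control and 198 in Dach1OE, 3.89 and 7.79 CPM, with an interval of the log2 ratio from 0.63 to 1.39. In megakaryocyte-like cells alone it was at 2.30 CPM on 6 UMIs and 22.2 on 48. The level in cells that should lack the gene was thus higher in Dach1OE too, and its part in the ratios of the classes with low levels was not tested.

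ECs held 404 Cthrc1 UMIs in Control and 1076 in Dach1OE, 12.6 and 32.8 CPM, a ratio of 1.38 (1.21 to 1.55). This class had the highest log2 ratio of Dach1, at 5.23. A Cthrc1 UMI was found in 3.32% of its Control and 7.06% of its Dach1OE cells, at a median of 2764 and 2762 UMIs per cell. After the values had been seen, ECs were divided by whether they held UMIs of at least 2 of the 4 arterial genes Gja4, Gja5, Hey1 and Sox17. Such cells numbered 456 of 9410 in Control and 1726 of 9859 in Dach1OE, and in them Cthrc1 was at 85.0 CPM (72.2 to 99.4) and 97.4 (90.1 to 105), a ratio of 0.20 (-0.06 to 0.46). In the remaining ECs it was at 8.19 CPM and 16.0, a ratio of 0.97 (0.74 to 1.20). Cthrc1 was thus higher in ECs with arterial genes in both libraries, and Dach1OE had more such cells. Without ECs that had an osteoblast score of 0.1 or more, the ratio over all ECs was 1.48, and in those with arterial genes it was 0.32 (0.05 to 0.60), at 84.8 and 106 CPM. The difference between the ratios of the parts was not tested, nor was the part that the number of arterial cells has in the ratio over all ECs.

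Gal was found mostly in cells of the bone-forming line. Osteoblast-like cells held 77.8% of its UMIs in Control and 79.1% in Dach1OE, and osteocyte-like cells, at 21.3 CPM (6.91 to 49.7) and 42.2 (21.8 to 73.8), did not differ from them beyond the intervals. Stromal cells between subtypes were at 6.20 and 8.21 CPM and cycling stromal cells at 1.39 and 9.10, on 2 and 12 UMIs. Chondrocyte-like cells were at 0.66 and 0.82 CPM, diaphyseal stromal cells at 0.35 and 0.58 and haematopoietic cells at 0.14 and 0.16. No Gal UMI was seen in the septoclast-like cells of either library, which allows up to 4.88 CPM in Control and 3.18 in Dach1OE. The total over all kept cells was 370 and 609 UMIs.

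Fetub had the same limits on fewer counts, 130 UMIs in Control and 232 in Dach1OE. Osteoblast-like cells held 64.6% and 85.3% of them. Cycling stromal cells had 4 and 10 UMIs, 2.79 and 7.59 CPM, and stromal cells between subtypes 4 and 1. Chondrocyte-like cells were at 0.16 CPM on 7 UMIs in Control and 0.10 on 6 in Dach1OE, ECs at 0.31 and 0.21 on 10 and 7, and haematopoietic cells at 0.37 and 0.12 on 8 and 3. All of these rest on 10 UMIs or fewer. The intervals of chondrocyte-like cells, ECs and haematopoietic cells overlap within each library. The interval of cycling stromal cells lay above each of theirs, at 0.76 to 7.14 CPM in Control and 3.64 to 13.9 in Dach1OE. No Fetub UMI was seen in metaphyseal stromal cells (which allows up to 2.22 and 3.09 CPM), mural-like cells (1.22 and 0.65) or fibroblast- or tendon-like cells (1.89 and 2.81).

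Stk32a was less exclusive in Control. Osteoblast-like cells held 36.5% of its 197 UMIs there and 64.0% of its 333 in Dach1OE, and chondrocyte-like cells 25.9% and 9.91%. Its level in chondrocyte-like cells was 1.13 CPM in Control and 0.55 in Dach1OE, a ratio of -1.04 (-1.72 to -0.38), below 0 where that of osteoblast-like cells was above 0. The difference between the classes was not tested. Haematopoietic cells were at 0.60 and 0.67 CPM, so the Dach1OE value of the chondrocyte-like cells was no higher than that of blood cells. By mouse the chondrocyte-like ratio was -0.97 (-2.01 to 0.02) in cells with Xist and -0.64 (-1.75 to 0.48) in cells with Y-linked UMIs.

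For Fkbp11, chondrocyte-like cells were at 148 CPM in Control and 161 in Dach1OE, beside 153 and 155 in osteoblast-like cells, and held 67.2% and 69.9% of its UMIs. It was lower in cycling stromal cells, at 60.6 and 78.9 CPM, in stromal cells between subtypes, at 43.0 and 38.1, and in diaphyseal stromal cells, at 17.3 and 18.2. Fkbp11 was thus as high in cartilage as in bone-forming cells. ECs were at 8.81 and 8.36 CPM and haematopoietic cells at 7.04 and 5.82. Its ratio was 0.12 (0.08 to 0.17) in chondrocyte-like, 0.07 (-0.38 to 0.51) in diaphyseal stromal and -0.08 (-0.32 to 0.17) in endothelial cells. In fibroblast- or tendon-like cells it was -1.02 (-1.87 to -0.22) on 54 and 18 UMIs, and in metaphyseal stromal cells 0.78 (0.05 to 1.53) on 30 and 37.

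The genes whose levels followed each member most closely were taken as the 5 with the highest Pearson correlation of log2(CPM + 1) over 24 points, 12 classes in 2 libraries, among 13304 genes with at least 500 UMIs. The points share their libraries and classes, so the correlations are descriptions. For Cthrc1 they were Ptgis, Wisp1, Col13a1, Mmp16 and Stk32b, a relative of Stk32a, with r from 0.90 to 0.91. Their levels in osteoblast-like cells differed less between the libraries than that of Cthrc1. Ptgis was at 494 CPM in Control and 432 in Dach1OE, Wisp1 at 499 and 500.2, Col13a1 at 229 and 230.0 and Mmp16 at 138 and 162. For Gal they were Lingo3, Bcan, Ranbp3l, Creb3l3 and Bglap (r from 0.93 to 0.95), and for Fetub Lingo3, Gal, Lipc, Entpd3 and Bglap (0.90 to 0.94), so that Lingo3 led both lists. Stk32a was nearest to Col24a1, Creb3l3, Sphkap, Entpd3 and BC055402 (0.86 to 0.90). Fkbp11 was nearest to Ostc, a subunit of the ER complex that attaches sugars to new proteins, followed by Sgms2, Col11a1, Bmp7 and Hdlbp (0.91 to 0.95). Bglap is a marker that the gate of osteoblast-like cells used.

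From cell to cell within the osteoblast-like class, the log-scaled levels of Cthrc1 and Fkbp11 had r = 0.35 in 1962 Control and 0.34 in 2669 Dach1OE cells, and those of Cthrc1 and Gal 0.23 and 0.21. The cells share a library and differ in depth, and correlations among the sparse members are not read. Osteoblast-like cells with a Gal UMI among 1000 drawn, 41 in Control and 37 in Dach1OE, had Cthrc1 at 682 and 1055 CPM, against 467 and 765 in those without.

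The relatives of the members are given by counts, as no test was made of them. Of the other members of the galanin system, Spx and Galr2 reached 20 UMIs. Spx, which encodes spexin, a peptide that acts on galanin receptors, was at 0.56 CPM in Control and 1.20 in Dach1OE stromal cells, a ratio of 1.11 on 16 and 35 UMIs. The receptor gene Galr2 was at 2.15 and 1.96 CPM there, and at 0.65 and 0.61 in osteoblast-like cells, on 9 and 12 UMIs. In osteoblast-like cells Spx had 6 and 23 UMIs, a ratio of 1.43 (0.10 to 3.02). The median of this pair was 0.49 in stromal and 0.67 in osteoblast-like cells. Galp, Galr1 and Galr3 stayed under the minimum. Of the plasma proteins related to Fetub, Kng1, the kininogen gene, was at 115 CPM in Control and 48.5 in Dach1OE stromal cells, a ratio of -1.25, but at 2.76 and 1.84 in osteoblast-like cells. Hrg was at 2.32 and 2.40 in osteoblast-like cells, and Ahsg, the gene of fetuin-A, had 6 and 15 UMIs in all stromal cells, a ratio of 1.31 (-0.14 to 2.96). The median of the 3 was 0.46 in stromal cells, and that of the 2 past the minimum was -0.27 in osteoblast-like cells.

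Of the kinases, Stk32b was at 15.8 CPM in Control and 13.1 in Dach1OE osteoblast-like cells, a ratio of -0.27, and Stk32c at 1.74 and 2.35, a ratio of 0.43, with medians of 0.08 there and 0.11 in stromal cells. All 14 other FK506-binding proteins passed the minimum, and none had a ratio past 1 in either direction in stromal cells (0.67% of all genes were past 1 and 4.79% past -1) or in osteoblast-like cells (1.04% and 2.41%), shares at which 14 genes would hold few or none. Their median log2 ratio was -0.05 in stromal cells beside -0.21 over all genes, and 0.13 in osteoblast-like cells beside -0.03 over all genes. Among the ER-resident members that fold collagen, Fkbp7 was at 417 and 467 CPM in osteoblast-like cells (ratio 0.17), Fkbp10 at 292 and 321 (0.14) and Fkbp14 at 71.1 and 78.2 (0.14).

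The 31 genes of ER entry and folding gave a median of -0.03 in osteoblast-like cells, the same as all genes, with 16 of 31 above the median of all genes. In stromal cells as a whole the median was -0.15. None of the 31 was past 1 in either direction in these cells or in osteoblast-like cells, where 0.67% and 1.04% of all genes were past 1 and 4.79% and 2.41% past -1. The osteoblast-like ratios ran from -0.20 for Dnajb9 to 0.25 for Ssr4, a subunit of the translocon-associated complex that went from 285 to 339 CPM. The chaperone gene Hspa5 was at 391 and 385 CPM (-0.02) and the translocon gene Sec61a1 at 155.8 and 155.6. Xbp1, a transcription factor of secretory cells, was at 254 and 249 CPM (-0.03).

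Of the 25 planar cell polarity genes and Wnt partners, among which Cthrc1 binds the Frizzled and Ror2 receptors, 1 had a log2 ratio past 1 in osteoblast-like cells, where 1.04% of all genes did. It was Fzd6, at 1.89 CPM in Control and 4.29 in Dach1OE on 26 and 84 UMIs, a ratio of 1.19. The median of the 25 was -0.02 in osteoblast-like cells, and Ror2 was at 5.08 and 4.59 CPM, Vangl2 at 5.58 and 6.84 and Wnt5a at 20.8 and 18.5. In stromal cells as a whole the median was -0.28, and Fzd1 was at 69.0 and 27.1 CPM, a ratio of -1.35, although in osteoblast-like cells it was at 6.02 and 5.26. Of 16 Wnt target and feedback genes 14 passed the minimum in osteoblast-like cells, none had a ratio past 1, and their median was 0.02. In osteoblast-like cells Notum was at 29.4 and 28.2 CPM, Axin2 at 4.79 and 3.47 and Lef1 at 4.35 and 5.87. In stromal cells as a whole 15 passed the minimum, with a median of -0.15 beside -0.21 over all genes, and 1 of them was below -1 (4.79% of all genes were), Lgr5 on 44 and 19 UMIs. Notum was at 18.3 and 22.4 CPM there.

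Cthrc1 is also known as a gene of TGF-beta-treated cells. Of the 9 TGF-beta response genes in the table, 3 had a ratio above the median of all genes (-0.03) in osteoblast-like cells. None of the 9 was past 1 there, where 1.04% of all genes were. Ctgf was at 47.4 and 35.4 CPM (-0.42, -0.58 to -0.27), Tgfbi at 5.58 and 4.34 (-0.36, -0.83 to 0.10) and Pmepa1 at 130.4 and 139.9 (0.10, 0.01 to 0.19). In stromal cells as a whole the median of the 9 was -0.29, and Ltbp2, at 84.5 and 39.3 CPM, was below -1, as were 4.79% of all genes. Of 10 genes of the stress response to cell dissociation, none was past 1 in either direction in osteoblast-like cells. Of all genes 1.04% were past 1 and 2.41% past -1 there, shares at which 10 genes would hold few or none. Their median there was -0.28, and 0 of the 10 lay above the median of all genes, with Fos at 133 and 123 CPM. In stromal cells as a whole the median was -0.16, 7 of the 10 lay above that of all genes, and Fos was at 97.8 and 109 CPM. Their part in the differences of the 5 genes was not tested.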

How the data were processed

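Single-cell RNA sequencing (BD Rhapsody) was made of 1 Control and 1 Dach1OE library, each from a pair of pooled mice. Per the file headers, the deposited counts are UMIs per cell and gene after the pipeline's error correction, which the authors ran at version 1.11 per the headers (another version per the methods) on GRCm38 and GENCODE vM19. They are whole numbers, not normalized. Intronic reads were counted, and use of strand is not given in the sources used here.

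Cells with 500 to 6000 genes and under 25% mitochondrial UMIs were kept. Doublets were not called, and an alternative left out the 5% of cells with most UMIs. A cell was given the class with the highest marker score if that was at least 0.25 and led by 0.1 (marker levels scaled to their 75th percentile). For stromal cells the best stromal score had to lead the best score of the other classes by 0.1. Stromal cells whose best subtype led the next by less than 0.1 were called between subtypes. A proliferation score of at least 0.25 put a stromal cell among the cycling ones whatever its subtype. A likelihood over the summed profiles of the classes, without the 5 members, gave the same class to 96.6% of 51332 gated cells. For the 4631 osteoblast-like cells it was 89.3%. The profiles were summed over the gated cells themselves and kept the markers of the gate, so part of this agreement was built in. UMIs were summed per class and library and divided by the class total. With 1 library per group no test was made, and no spread between mice enters any interval. Levels have exact Poisson intervals, shares exact binomial (Clopper-Pearson) intervals and log2 ratios exact conditional binomial intervals, all 95% and for counting error only. A count of 0 allows up to the upper end of its Poisson interval, and a ratio is given where both libraries had over 3 UMIs. Ratios over all genes used those with at least 20 UMIs, and a log2 ratio of 1 counted as past the limit. The interval method was tested on simulated data.

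The genes named are the 5 members, the 5 genes most like each, and members of the lists. The members and lists were chosen with earlier results of these data known, and list genes printed with values were picked after these were seen. Gene positions are from GENCODE vM21 on GRCm38. Python 3.11.15, numpy 2.4.6, scipy 1.17.1, pandas 2.3.3 and matplotlib 3.10.9 were used. The values of 1 gene of the lists are not reported here.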

Additional observations from a re-analysis of the deposited data

Results flagged for a closer look

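For a pair of genes the ratio of Dach1OE over Control in osteoblast-like cells had opposite signs in the cells of the 2 sexes, each of which stands for 1 mouse per library. The log2 ratio of Gal was -0.31 (-0.70 to 0.08) in cells with Xist and 0.86 (0.41 to 1.33) in cells with Y-linked UMIs. That of Fkbp11 was -0.12 (-0.26 to 0.02) and 0.083 (-0.09 to 0.26). Of these 4 intervals only that of Gal in cells with Y-linked UMIs leaves out 0. The difference between the sexes was not tested, and sex and mouse cannot be told apart.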

How the results depend on the processing

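With 1 library per group, no replicate could be left out. No paired analysis was possible because each group had 1 library, so no test could pair libraries (values within each sex are given as a description). The cause of the shifts below was not tested. Stromal log2 ratios were, with at least 4000 UMIs per cell, 0.92 for Cthrc1, 0.49 for Gal and 0.24 for Fkbp11; centred on the median of all genes, 1.35, 0.94 and 0.62; and with equal weights of 6 subtypes, 0.86 for Cthrc1, 0.19 for Fetub, 0.76 for Stk32a and 0.19 for Fkbp11. In osteoblast-like cells, under 10% mitochondrial UMIs gave 0.66 for Cthrc1 and -0.0036 for Fkbp11, and a stricter margin of the gate gave -0.0083 for Fkbp11. Cells with Xist alone gave -0.31 for Gal and -0.12 for Fkbp11, and cells with Y-linked UMIs alone 0.27 for Fetub and 0.86 for Gal, an alternative chosen with earlier results known. The remaining alternatives kept the sign, with osteoblast-like ratios from 0.68 to 0.74 for Cthrc1 (9 settings) and from 0.96 to 1.24 for Stk32a (10 settings). The number of genes at a log2 ratio of 1 or more was 110 in stromal and 150 in osteoblast-like cells; it was 21 and 16 with at least 100 UMIs, 757 and 1157 with at least 3, and 233 in stromal cells after centring. Fetub and Stk32a rest on 72 to 213 UMIs per library in osteoblast-like cells, which limits what can be said of them within small classes. The equal-weight value of Fetub counts osteocyte-like cells, with 2 and 1 UMIs, as much as osteoblast-like cells.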
